A study of Mus musculus with 24 samples.

Results

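The comparison described here set mouse embryonic fibroblasts (MEFs) labelled as transduced with NeuroD2 against untransduced MEFs of the same batch. It took 6 of the 24 arrays of the series, 3 of NeuroD2-labelled MEFs and 3 of untransduced MEFs, chosen by their titles, and all 18193 genes measured on them. All MEFs of the study, controls included, came from mice lacking Myod and Myf5 (Myod-/-/Myf5-/-) and were grown in DMEM with 10% FBS. NeuroD2-labelled MEFs had received lentivirus with 8 µg/ml polybrene, and fresh medium followed after 24 hours. Untransduced MEFs received no virus, so an effect of the virus and an effect of the factor it carried cannot be told apart. Other groups used for comparison were P19 cells, a mouse embryonal carcinoma line, with NeuroD2 virus or untransduced (batch 3), and MEFs with MyoD virus or untransduced (batch 1), with 3 arrays each. Harvest of the P19 cells was at 72 hours. MyoD MEFs were moved at 48 hours to differentiation medium with 1% horse serum and harvested 36 to 40 hours later, whereas medium and time at harvest of the NeuroD2-labelled MEFs are not clearly given in the labels. For untransduced MEFs no time at harvest is given. Medium, serum and time in culture may thus also differ between NeuroD2-labelled and untransduced MEFs, and cannot be told apart from the factor. The labels call both transduced MEF groups neuronally differentiated. They do not say that replicates were separate cultures, so p-values measure the spread between these samples, which may be technical.

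NeuroD2 is a basic helix-loop-helix (bHLH) transcription factor of the neurogenic family. Such factors pair with E proteins and bind E-boxes, short DNA motifs spelled CANNTG, and MyoD, the muscle factor of the same class, binds E-boxes as well. In the developing nervous system, proneural bHLH factors raise Notch ligands such as Dll1 on the cell that expresses them. Notch receptors on neighbouring cells then raise Hes and Hey repressors, which restrain neuronal differentiation, and Id proteins restrain bHLH factors by binding their E protein partners.

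Values are log2 signal intensities, and each difference is the mean of NeuroD2-labelled MEFs minus the mean of untransduced MEFs, given with its standard error (SE). A gene was called changed at a Benjamini-Hochberg adjusted p under 0.05 in limma, over all 18193 genes. RNA was measured on whole cultures, so fewer cells of a type and less RNA per cell cannot be told apart. The 3 arrays of NeuroD2-labelled MEFs correlated with one another at a mean r of 0.9979 to 0.998 over genes, and the 3 untransduced arrays at 0.9937 to 0.9961. Of the untransduced arrays, replicate 3 was the one at 0.9937. A P19 control array outside the comparison (replicate 2 of batch 1) stood apart, with a mean r of 0.9191, and widens the spread estimate that all groups share.

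The transduced gene was checked before anything else. Neurod2 was measured by 3 probe sets, and none was raised in the NeuroD2-labelled MEFs. The probe set that rose in P19 cells averaged 5.95 ± 0.0163 in NeuroD2-labelled MEFs and 6.01 ± 0.199 in untransduced MEFs (SD, n = 3 each), a difference of -0.06 with an adjusted p of 0.943. In P19 cells the same probe set averaged 7.68 ± 0.423 with NeuroD2 and 5.98 ± 0.13 without (SD, n = 3 each), a difference of 1.70 with an adjusted p of 1.85e-06. The effect in MEFs was lower than that in P19 cells by 1.76 on the log2 scale (adjusted p = 7.86e-05 for the difference). The probe set that stands for the gene in the counts below differed by 0.21 in MEFs (adjusted p = 0.679) and by 0.21 in P19 cells (adjusted p = 0.725). The remaining probe set differed by -0.12 in MEFs (adjusted p = 0.791). Whether these probe sets lie within the transduced sequence was not stated in the sources used here. Because the RNA of the named factor was not seen to be raised, the group is called NeuroD2-labelled MEFs throughout, and every direction below is relative to that label. Myod1 differed by -0.06 (adjusted p = 0.895).

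The cells on both sides carried fibroblast RNA. The mean of 8 fibroblast markers lay between 12.26 and 12.34 in the NeuroD2-labelled arrays and between 12.66 and 12.75 in the untransduced arrays, and Lum fell by the test with all 24 arrays. Thy1, at -0.56, passed in the 6 arrays of batch 2 alone (adjusted p = 0.00054) and not with all 24. The mean of 8 neuronal markers lay between 5.49 and 5.56 in NeuroD2-labelled MEFs and between 5.10 and 5.33 in untransduced MEFs. In P19 cells with NeuroD2 the same mean lay between 9.59 and 10.17. Tubb3, a neuronal beta tubulin, was the only neuronal marker of the 8 that rose in MEFs. Markers of pluripotent cells (4.19 to 4.37 against 4.23 to 4.36), skeletal muscle (4.99 to 5.11 against 4.78 to 5.13) and endothelium (5.30 to 5.46 against 5.25 to 5.31) had no member that passed the test. The mean of 3 glial markers lay between 6.12 and 6.15 in NeuroD2-labelled MEFs and between 6.78 and 6.79 in untransduced MEFs, and Mbp fell. Macrophage markers averaged 5.08 in each NeuroD2-labelled array and 5.17 to 5.29 in untransduced arrays, and Cd68 fell. Epithelial markers averaged 4.61 to 4.68 in NeuroD2-labelled MEFs and 4.41 to 5.27 in untransduced MEFs, where replicate 3 was the highest. The part of any other cell type in the differences below was not tested.

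**Figure D1:**
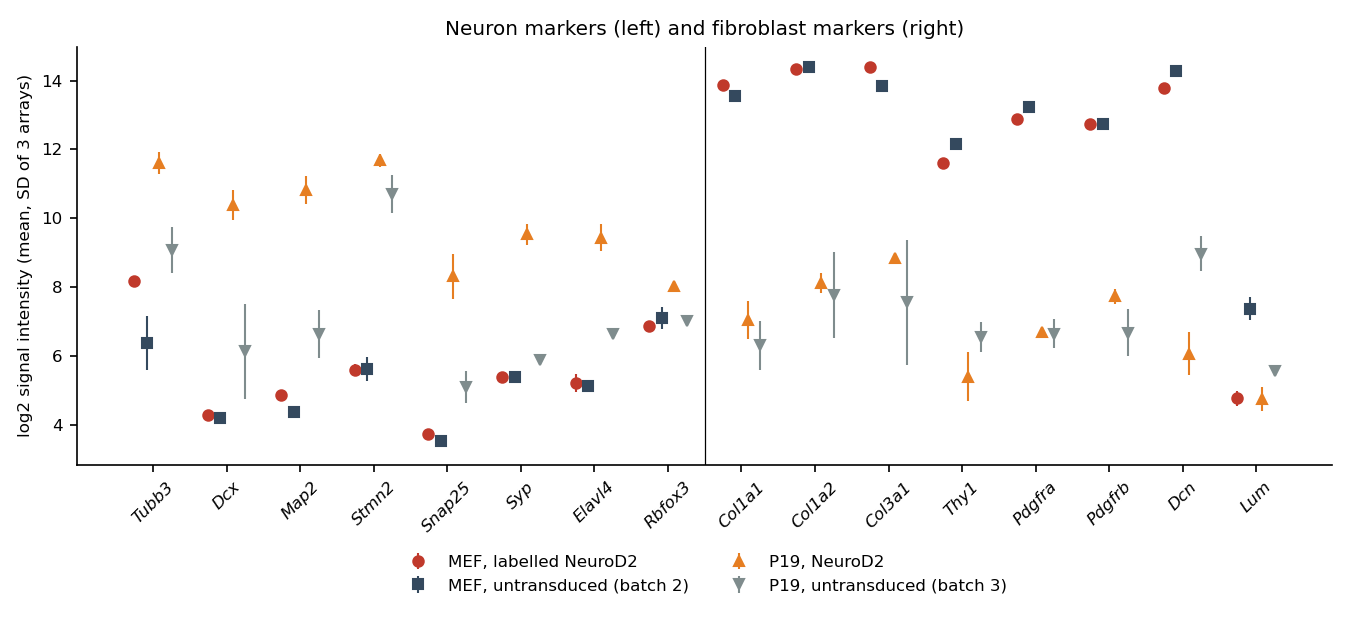
Mean log2 signal (vertical axis) of 8 neuron markers, left of the line, and 8 fibroblast markers, right of it, in NeuroD2-labelled MEFs, untransduced MEFs, P19 cells with NeuroD2 and untransduced P19 cells; bars are the SD of 3 arrays. Tubb3 is the neuron marker that stands higher in NeuroD2-labelled than in untransduced MEFs and passed the test, and of the fibroblast markers Lum is the one that fell in the fit with all 24 arrays.

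Between NeuroD2-labelled and untransduced MEFs, 1166 genes rose (6.41% of those tested) and 1080 fell (5.94%). The fold was at least 2 for 463 rises and 433 falls, at least 4 for 118 and 98, at least 8 for 43 and 32, and at least 16 for 12 and 13. The median rise was 0.85 and the median fall was -0.87. Of the 2246 genes called, 2236 had no overlap between the 3 arrays of each group, against 43.9% of all genes. Among genes that rose, 33.4% had an untransduced mean below the median of all genes, against 15.7% of those that fell and 50.4% of all genes. Without the P19 control array that stood apart, the same fit called 2506 rises and 2422 falls, which is 13.8% and 13.3% of the genes. Counts of gene groups below are from the fit with all 24 arrays, where 6.41% of all genes rose and 5.94% fell. Counts given without that P19 array are to be set beside 13.8% and 13.3%. At an unadjusted p under 0.05 in limma, 1896 of all 18193 genes were higher and 1853 lower. With quantile normalization 1655 of all genes rose and 1700 fell. List counts in either setting are to be set beside these.

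**Figure D2:**
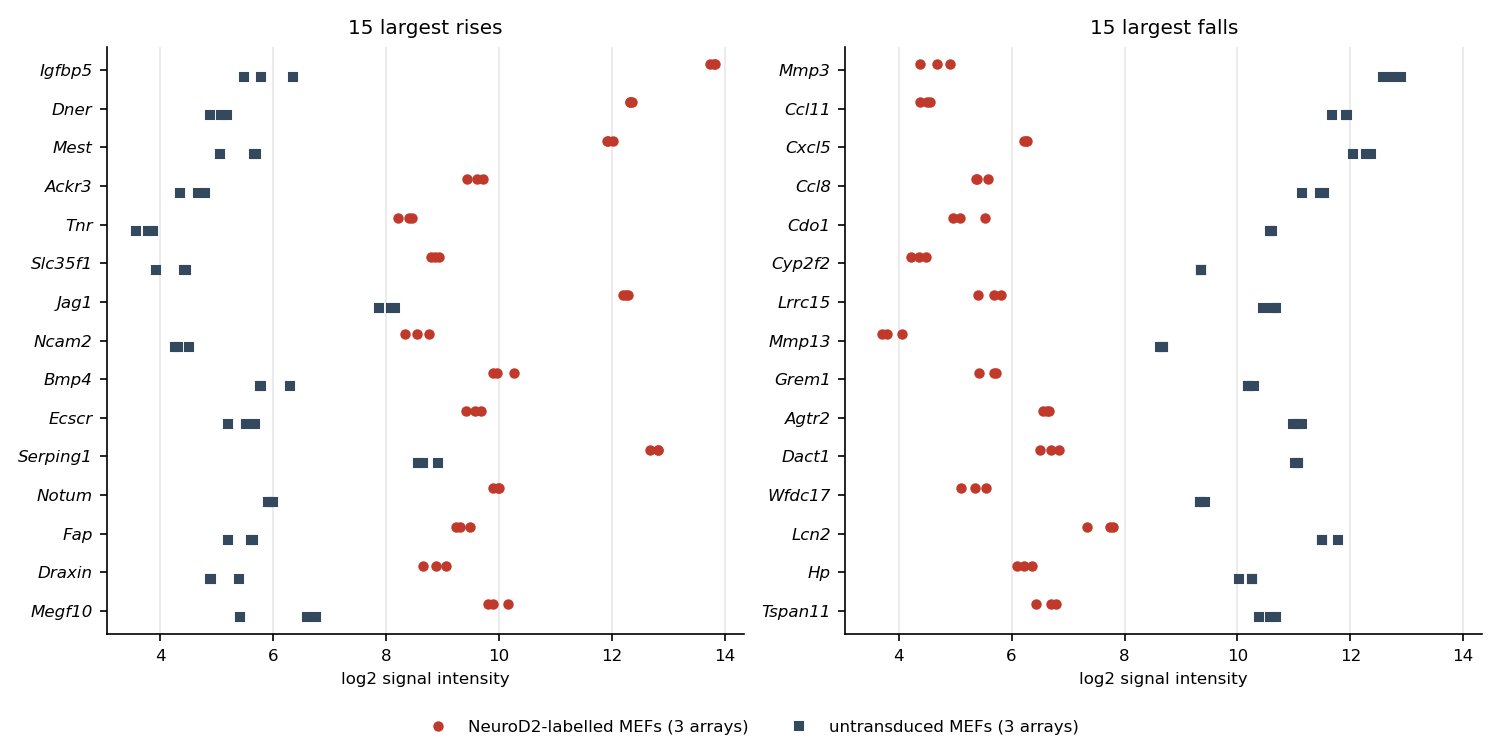
Log2 signal intensity (horizontal axis) of the 15 largest rises (left) and the 15 largest falls (right) under the rule for named genes, with red circles for the 3 NeuroD2-labelled arrays and dark squares for the 3 untransduced arrays. In every gene drawn the NeuroD2-labelled arrays lie wholly to one side of the untransduced arrays.

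Igfbp5, Dner and Mest had the 3 largest rises among named genes, and Jag1 is taken with them as a marker of the NeuroD2-labelled arrays, although Ackr3, Tnr and Slc35f1 rose by more. Windows from 250 bases before to 50 bases after the annotated start of each gene (RefSeq, GRCm38.p6) are shown because bHLH factors bind E-boxes and these genes moved together. Capitals mark E-boxes (CANNTG, which reads as CANNTG on both strands). RefSeq windows were found for 10 of the 15 largest rises, and those of these 4 genes are printed. They lie at chr1:72874816-72875115 on the minus strand for Igfbp5, chr1:84696172-84696471 on the minus strand for Dner, chr6:30733256-30733555 on the plus strand for Mest (the most upstream of its annotated starts) and chr2:137116471-137116770 on the minus strand for Jag1.
Igfbp5: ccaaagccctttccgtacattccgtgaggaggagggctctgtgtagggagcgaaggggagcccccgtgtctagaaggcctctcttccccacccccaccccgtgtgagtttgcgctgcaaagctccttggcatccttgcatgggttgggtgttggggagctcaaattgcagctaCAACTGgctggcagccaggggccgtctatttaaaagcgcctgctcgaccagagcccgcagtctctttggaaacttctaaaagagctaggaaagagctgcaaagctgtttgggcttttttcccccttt
Dner: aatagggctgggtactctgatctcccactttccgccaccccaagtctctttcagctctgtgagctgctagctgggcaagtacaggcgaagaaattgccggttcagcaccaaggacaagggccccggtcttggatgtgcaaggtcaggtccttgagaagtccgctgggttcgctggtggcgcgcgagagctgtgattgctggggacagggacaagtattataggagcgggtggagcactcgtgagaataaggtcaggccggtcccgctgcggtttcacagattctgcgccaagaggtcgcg
Mest: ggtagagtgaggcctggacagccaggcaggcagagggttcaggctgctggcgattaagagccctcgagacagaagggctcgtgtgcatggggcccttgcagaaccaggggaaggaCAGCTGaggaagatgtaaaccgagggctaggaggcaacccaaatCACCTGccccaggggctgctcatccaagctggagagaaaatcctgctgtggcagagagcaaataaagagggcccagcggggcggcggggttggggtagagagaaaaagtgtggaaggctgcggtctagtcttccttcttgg
Jag1: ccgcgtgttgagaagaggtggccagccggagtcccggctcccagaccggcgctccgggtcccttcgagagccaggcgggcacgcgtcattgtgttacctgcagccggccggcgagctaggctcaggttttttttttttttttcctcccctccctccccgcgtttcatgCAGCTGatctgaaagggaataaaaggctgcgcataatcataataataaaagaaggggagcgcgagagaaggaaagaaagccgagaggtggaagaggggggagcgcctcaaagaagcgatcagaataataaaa
The Igfbp5 window holds CAACTG, the Mest window printed CAGCTG and CACCTG, and the Jag1 window CAGCTG, while no CANNTG stands in the Dner window. Windows at the other annotated Mest starts hold CACATG alone, so the forms found for Mest depend on the start chosen. Any E-box was found in 65.8% of 1217 windows of genes that rose, 68.5% of 1118 windows of genes that fell, and 67.5% of 18109 windows of all genes tested. CAGATG, the form most tied to neurogenic factors, stood in 13.8%, 12.3% and 13.4% of those windows, searched on both strands. CAGCTG, a form that MyoD also binds, stood in 19.3%, 17.6% and 16.4%, and CAGGTG in 17.2%, 17.3% and 20.0% with CAGGTG on both strands. A match describes letters in the window and not a bound site.

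Dner encodes a neuronal transmembrane protein with EGF repeats that acts as a Notch ligand. Its signal was 12.36, 12.31 and 12.32 in NeuroD2-labelled MEFs, against 5.07, 5.18 and 4.87 in untransduced MEFs. All 3 NeuroD2-labelled arrays stood far above the untransduced arrays, with a difference of 7.29 ± 0.25 (adjusted p = 9.91e-15), or 156-fold. Igfbp5, a secreted protein that binds insulin-like growth factors, had 13.81, 13.82 and 13.73 in NeuroD2-labelled MEFs, against 6.34, 5.78 and 5.48 in untransduced MEFs. The difference was 7.92 ± 0.375 (adjusted p = 2.31e-12), or 242-fold, the largest rise of any gene tested.

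Mest, an imprinted gene for a protein of the hydrolase family, had 11.91, 12.02 and 11.93 in NeuroD2-labelled MEFs, against 5.69, 5.66 and 5.06 in untransduced MEFs. It rose by 6.48 ± 0.186 (adjusted p = 5.76e-16), or 89.6-fold. Jag1, a ligand of Notch receptors, had 12.24, 12.19 and 12.29 in NeuroD2-labelled MEFs, against 8.08, 8.16 and 7.87 in untransduced MEFs. It rose by 4.21 ± 0.337 (adjusted p = 7.94e-09), or 18.5-fold. The NeuroD2-labelled arrays agree closely in each of the 4 genes, with an SD between 0.0269 (Dner) and 0.058 (Mest). Set against the untransduced MEFs of batch 1 in place of batch 2, the differences were 6.76 for Dner, 8.05 for Igfbp5, 6.78 for Mest and 3.97 for Jag1.

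Several of the other largest rises encode proteins of the cell surface or the matrix. Ackr3, an atypical chemokine receptor that takes up Cxcl12, had 9.71, 9.61 and 9.43 in NeuroD2-labelled MEFs, against 4.67, 4.79 and 4.34 in untransduced MEFs, a difference of 4.98 ± 0.353 (adjusted p = 1.25e-09). Tnr, tenascin-R, a matrix protein of the nervous system, had 8.41, 8.45 and 8.20 in NeuroD2-labelled MEFs, against 3.78, 3.87 and 3.57 in untransduced MEFs. Its difference was 4.61 ± 0.144 (adjusted p = 1.92e-15), and the groups lay far apart. Ncam2, a neural cell adhesion molecule, had 8.76, 8.33 and 8.54 in NeuroD2-labelled MEFs, against 4.25, 4.31 and 4.51 in untransduced MEFs, and rose by 4.19 ± 0.138 (adjusted p = 4.63e-15). Megf10, an engulfment receptor, had 9.81, 10.15 and 9.90 in NeuroD2-labelled MEFs, against 6.76, 6.59 and 5.41 in untransduced MEFs. It rose by 3.70 ± 0.507 (adjusted p = 1.74e-05), and untransduced replicate 3 was the lowest. Against the untransduced MEFs of batch 1 the Megf10 difference was 2.10 (adjusted p = 0.00513).

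Secreted signals were a further part of the rises. Bmp4, a bone morphogenetic protein, had 10.27, 9.89 and 9.97 in NeuroD2-labelled MEFs, against 5.77, 5.78 and 6.29 in untransduced MEFs, a difference of 4.10 ± 0.268 (adjusted p = 3.6e-10). Notum, an enzyme that inactivates Wnt proteins by removing their lipid, had 9.98, 9.99 and 9.90 in NeuroD2-labelled MEFs, against 5.94, 5.99 and 5.90 in untransduced MEFs. It rose by 4.02 ± 0.1 (adjusted p = 5.01e-17), with a narrow spread on either side. Draxin, an axon guidance protein that also opposes Wnt signals, had 9.05, 8.65 and 8.88 in NeuroD2-labelled MEFs, against 4.89, 4.87 and 5.40 in untransduced MEFs, a difference of 3.81 ± 0.145 (adjusted p = 5.53e-14). Serping1, the C1 inhibitor of complement, had 12.82, 12.81 and 12.68 in NeuroD2-labelled MEFs, against 8.66, 8.57 and 8.91 in untransduced MEFs. It rose by 4.06 ± 0.219 (adjusted p = 1.84e-11). The other rises among the 15 largest were Slc35f1 (4.60 ± 0.218), Ecscr, an endothelial surface protein (4.09 ± 0.215), and Fap, a serine protease of activated fibroblasts (3.86 ± 0.162).

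The largest falls were led by a matrix protease and by chemokines. Mmp3, stromelysin, had 4.90, 4.67 and 4.38 in NeuroD2-labelled MEFs, against 12.90, 12.74 and 12.58 in untransduced MEFs. The difference was -8.09 ± 0.143 (adjusted p = 1.75e-19), 273-fold lower in NeuroD2-labelled MEFs. Ccl11, eotaxin, an attractant of eosinophils, had 4.55, 4.38 and 4.51 in NeuroD2-labelled MEFs, against 11.94, 11.68 and 11.93 in untransduced MEFs. It fell by 7.37 ± 0.122 (adjusted p = 9.87e-20), 165-fold. Cxcl5, a neutrophil attractant, had 6.26, 6.22 and 6.28 in NeuroD2-labelled MEFs, against 12.36, 12.05 and 12.27 in untransduced MEFs, and fell by 5.97 ± 0.126 (adjusted p = 2.93e-18), 62.7-fold. Ccl8, a monocyte attractant, had 5.39, 5.59 and 5.37 in NeuroD2-labelled MEFs, against 11.47, 11.15 and 11.53 in untransduced MEFs, and fell by 5.93 ± 0.111 (adjusted p = 3.5e-19).

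These 4 genes also differed between the untransduced MEFs of the 2 batches, being higher in batch 2 by 1.83 (Mmp3), 0.76 (Ccl11), 1.01 (Cxcl5) and 1.23 (Ccl8). Set against the batch 1 controls, the NeuroD2-labelled MEFs were still lower, by -6.27, -6.61, -4.96 and -4.70. Mmp13, a collagenase, had 3.79, 4.05 and 3.71 in NeuroD2-labelled MEFs, against 8.69, 8.62 and 8.69 in untransduced MEFs, a difference of -4.82 ± 0.151 (adjusted p = 1.93e-15). Wfdc17 fell by 4.03 ± 0.22, and by 2.06 against the batch 1 controls. All 6 of these genes passed the two-sided limma test against either set of controls.

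Other large falls were in enzymes, surface proteins and secreted antagonists. Cdo1, cysteine dioxygenase, had 5.52, 5.08 and 4.96 in NeuroD2-labelled MEFs, against 10.60, 10.62 and 10.57 in untransduced MEFs, and fell by 5.41 ± 0.154 (adjusted p = 5.66e-16). Lrrc15, a leucine-rich repeat protein of fibroblasts, had 5.69, 5.81 and 5.40 in NeuroD2-labelled MEFs, against 10.63, 10.45 and 10.68 in untransduced MEFs, and fell by 4.95 ± 0.114 (adjusted p = 1.25e-17). Grem1, an antagonist of bone morphogenetic proteins, had 5.43, 5.68 and 5.72 in NeuroD2-labelled MEFs, against 10.29, 10.18 and 10.19 in untransduced MEFs. It fell by 4.61 ± 0.14 (adjusted p = 1.36e-15) while Bmp4 rose. The rest of the 15 largest were Cyp2f2, a cytochrome P450 (-5.00 ± 0.175), Agtr2, the type 2 angiotensin II receptor (-4.44 ± 0.133), Dact1, a regulator of Wnt signalling (-4.37 ± 0.219), Lcn2, lipocalin 2 (-3.96 ± 0.172), Hp, haptoglobin (-3.94 ± 0.237), and Tspan11, a tetraspanin (-3.91 ± 0.145).

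Of 34 measured Notch pathway genes, 10 rose (29.4%, against 6.41% of all genes) and 3 fell (8.82%, against 5.94%). Their median difference was 0.13, against -0.024 over all genes. Ligands took the largest values. Dll1, the ligand that proneural factors are known to raise, had 8.43, 8.37 and 8.37 in NeuroD2-labelled MEFs, against 6.06, 6.20 and 6.17 in untransduced MEFs, and rose by 2.25 ± 0.167 (adjusted p = 2.62e-09). It stood higher still in MyoD MEFs, with a mean of 10.32, against 6.05 in untransduced MEFs of batch 1. Dner and Jag1 are given above, and Dlk2 rose by 1.10 (1.06, adjusted p = 0.0591, with quantile normalization), whereas Dlk1, a related membrane protein, fell by 1.69 ± 0.136 (adjusted p = 8.65e-09). Among receptors, Notch1 had 9.03, 9.03 and 9.05 in NeuroD2-labelled MEFs, against 7.52, 7.39 and 7.46 in untransduced MEFs, and rose by 1.58 ± 0.239 (adjusted p = 5.92e-05). Its mean in MyoD MEFs was 10.41, against 7.39 in untransduced MEFs of batch 1. Notch3 rose by 1.60 ± 0.257 (adjusted p = 0.000122), and Notch2 fell by 0.71 ± 0.18 (adjusted p = 0.00924). When probe sets that can bind several transcripts were left out, another probe set stood for some genes, and neither Dlk1 (-0.11, adjusted p = 0.911) nor Notch3 (0.44, adjusted p = 0.0875) passed. Against batch 1 controls Notch2 differed by -0.48 and did not pass (adjusted p = 0.078).

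Modifiers and processing enzymes of the pathway moved both ways. Dtx4, a ubiquitin ligase of the pathway, had 10.72, 10.63 and 10.74 in NeuroD2-labelled MEFs, against 8.68, 8.58 and 8.76 in untransduced MEFs, and rose by 2.02 ± 0.291 (adjusted p = 3.17e-05). Ncstn, a subunit of gamma-secretase, rose by 1.17 ± 0.165, and Psen2, a catalytic subunit of the same complex, fell by 0.33. Rfng, a glycosyltransferase that modifies the receptors, rose by 0.45. When probe sets that can bind several transcripts were left out, neither Psen2 (-0.23, adjusted p = 0.318) nor Rfng (0.47, adjusted p = 0.184) passed. Among targets, Nrarp, which Notch signalling raises and which dampens it, had 7.48, 7.33 and 7.37 in NeuroD2-labelled MEFs, against 6.78, 6.58 and 7.01 in untransduced MEFs, a difference of 0.60 ± 0.116 (adjusted p = 0.000866). Hes1, the main repressor target, did not pass the test, with 9.75, 9.67 and 9.58 in NeuroD2-labelled MEFs, against 9.89, 9.81 and 9.83 in untransduced MEFs (difference -0.18 ± 0.175, adjusted p = 0.724). Against the batch 1 controls the Hes1 difference was 0.67 (adjusted p = 0.00961), so its direction depends on the controls used. Hey1 differed by 0.09 and did not pass either. With quantile normalization the list had 8 rises and 5 falls, against 1655 and 1700 of all 18193 genes. Without the P19 array that stood apart it had 13 (38.2%, against 13.8% of all genes) and 7 (20.6%, against 13.3%).

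**Figure D3:**
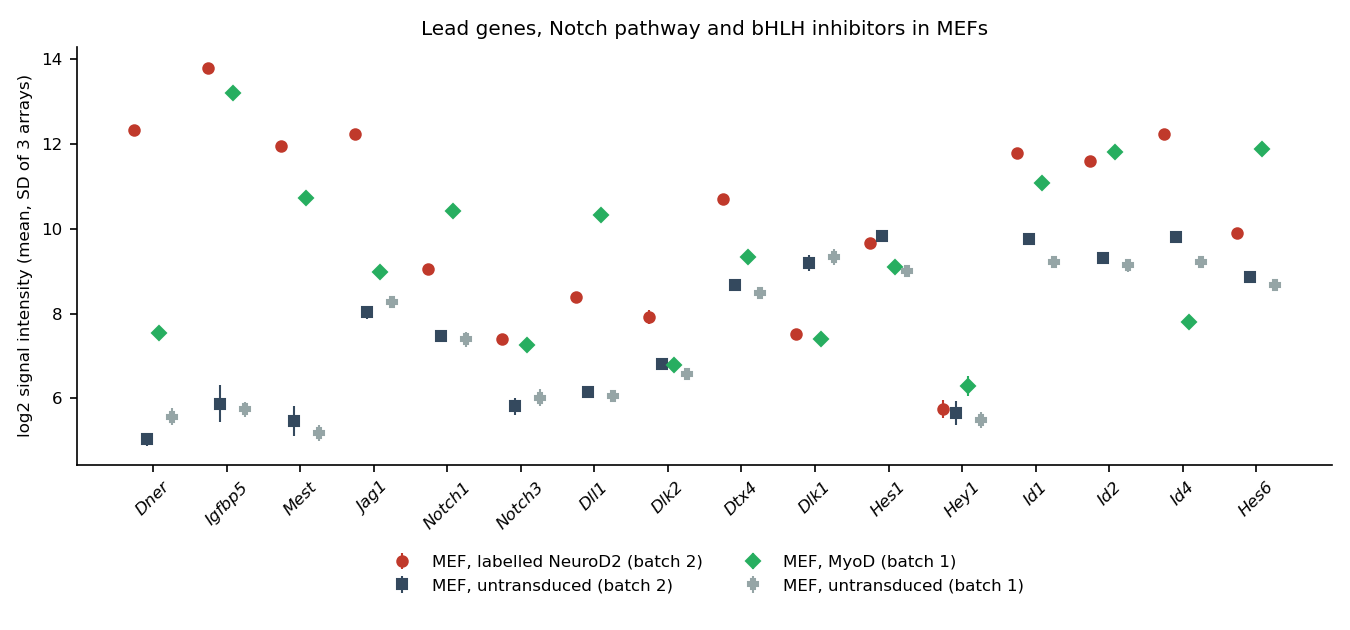
Mean log2 signal (vertical axis; bars are the SD of 3 arrays) of Dner, Igfbp5, Mest and Jag1, Notch pathway genes and bHLH inhibitors in NeuroD2-labelled MEFs, untransduced MEFs of batch 2, MyoD MEFs and untransduced MEFs of batch 1. Dner and Jag1 stand high in NeuroD2-labelled MEFs and much lower in MyoD MEFs, Igfbp5 and Mest stand high in both, and Hes1 stands close to its controls in both.

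The bHLH partners and inhibitors had 4 rises (18.2%, against 6.41% of all genes) and 2 falls (9.09%, against 5.94%) among 22 measured genes. Id proteins were prominent among the rises. Id4 had 12.23, 12.26 and 12.22 in NeuroD2-labelled MEFs, against 9.86, 9.81 and 9.74 in untransduced MEFs, a difference of 2.43 ± 0.276 (adjusted p = 1.39e-06). Id2 rose by 2.29 ± 0.281 and Id1 by 2.02 ± 0.124, both with no overlap between groups, and Id3 differed by 0.34 without passing the test (adjusted p = 0.303, or 0.00478 without the P19 array that stood apart). Hes6, an inhibitor of Hes1 activity, rose by 1.05 ± 0.107 (adjusted p = 2.95e-07). Bhlhe40, a transcriptional repressor of the circadian and hypoxia responses, fell by 2.47 ± 0.324 (adjusted p = 9.86e-06), and Tcf12, an E protein partner, fell by 0.71 ± 0.19 (adjusted p = 0.0143). Without the P19 array that stood apart, 5 members rose and 5 fell (22.7% each, against 13.8% and 13.3% of all genes).

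Of 16 measured proneural and neuronal bHLH genes, 2 rose (12.5%, against 6.41% of all genes) and none fell in limma, and at an unadjusted p under 0.05 the counts were also 2 and 0. Atoh8, a bHLH factor expressed in muscle and vessels as well as in nervous tissue, had 10.79, 10.88 and 10.64 in NeuroD2-labelled MEFs, against 7.72, 7.47 and 7.52 in untransduced MEFs, and rose by 3.20 ± 0.212 (adjusted p = 4.3e-10). Nhlh1 rose by 1.04 ± 0.215 (adjusted p = 0.00161) and stayed low, between 5.04 and 5.52 in NeuroD2-labelled MEFs. In P19 cells with NeuroD2, where 5.1% of all genes rose and 3.24% fell, 6 members of this list rose.

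Genes of the neuronal state changed in small numbers and in both directions. Among 42 other neuronal transcription factors, 3 rose and 2 fell, shares of 7.14% and 4.76% that lie near those of all genes. Rcor2, a corepressor subunit, rose by 2.43 ± 0.141, Zeb1, a zinc finger repressor also known for mesenchymal cells, by 1.67 ± 0.127, and Klf7 by 1.13. Bcl11b, a zinc finger factor of cortical neurons and T cells, fell by 1.69 ± 0.315, and Lmo4 by 0.87. Without the P19 array that stood apart, 6 of the list rose (14.3%, against 13.8% of all genes) and 4 fell (9.52%, against 13.3%). In P19 cells with NeuroD2 the same list had 16 rises and 1 fall.

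The 44 measured genes of the neuronal cytoskeleton and of neuronal RNA binding had 6 rises and 6 falls, with a median of -0.10. Either share was 13.6%, against 6.41% and 5.94% of all genes. Tubb3 had 8.21, 8.23 and 8.15 in NeuroD2-labelled MEFs, against 5.83, 6.0 and 7.26 in untransduced MEFs, and rose by 1.83 ± 0.293 (adjusted p = 0.000114). Untransduced replicate 3 was the highest of its group, and without it the Tubb3 difference was 2.28. Elavl2, an RNA-binding protein of neurons, had 9.59, 9.70 and 9.71 in NeuroD2-labelled MEFs, against 7.30, 7.21 and 6.68 in untransduced MEFs, and rose by 2.60 ± 0.259 (adjusted p = 2.06e-07). Prph, peripherin, an intermediate filament of peripheral neurons, rose by 1.62 ± 0.267, and Nova1, a neuronal splicing regulator, by 1.52 ± 0.294. Dpysl3, a regulator of microtubules in growing axons, had 10.64, 10.63 and 10.66 in NeuroD2-labelled MEFs, against 12.32, 12.33 and 12.35 in untransduced MEFs, and fell by 1.69 ± 0.348 (adjusted p = 0.0016). Tubb2b, another beta tubulin, fell by 1.08 ± 0.255 (-0.72, adjusted p = 0.0621, against batch 1 controls), and Nefm, a neurofilament subunit, by 0.97 ± 0.258. Dcx (0.09), Stmn2 (-0.03) and Gap43 (-0.10), all known from young neurons, did not pass the test. In P19 cells with NeuroD2 the list had 34 rises and no fall, with a median of 1.34.

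Among lists for synapses, excitability and dense core vesicles, receptors and channels had the largest share of rises. Synaptic vesicle genes rose at near the share of all genes. Of 44 synaptic vesicle genes, 3 rose (6.82%, against 6.41% of all genes) and 1 fell. Syt13, a synaptotagmin, rose by 1.12 ± 0.202 (by 0.46, adjusted p = 0.146, against batch 1 controls), and Vamp2, a SNARE protein of vesicles, by 0.63 ± 0.145, while Snap25 (0.22) and Syp (0.00) did not pass. P19 cells with NeuroD2 had 21 rises and no fall in this list. Of 54 neuronal receptors and channels, 7 rose (13%, against 6.41% of all genes) and 1 fell (1.85%). Scn3a, a sodium channel subunit, had 5.83, 6.36 and 5.82 in NeuroD2-labelled MEFs, against 4.14, 4.01 and 3.96 in untransduced MEFs, and rose by 1.97 ± 0.24 (adjusted p = 3.69e-06). Gabrb1, a GABA-A receptor subunit, rose by 1.82 ± 0.128, and Cacna1a, a calcium channel subunit, by 1.87 ± 0.224. Cacna1a was -0.51 (adjusted p = 0.277) when probe sets that can bind several transcripts were left out, because another probe set then stood for the gene. Of 22 granins and dense core vesicle genes, 2 rose and 2 fell (9.09% each, against 6.41% and 5.94% of all genes). Cck, the precursor of cholecystokinin, had 10.30, 10.54 and 10.36 in NeuroD2-labelled MEFs, against 8.85, 8.61 and 8.48 in untransduced MEFs, and rose by 1.75 ± 0.166 (adjusted p = 1.02e-07). Scg2, secretogranin II, had 4.45, 4.27 and 4.39 in NeuroD2-labelled MEFs, against 6.02, 6.27 and 6.46 in untransduced MEFs, and fell by 1.88 ± 0.254 (adjusted p = 1.45e-05).

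Axon guidance and adhesion genes changed in both directions. Of 69 measured, 21 rose (30.4%, against 6.41% of all genes) and 13 fell (18.8%, against 5.94%). Besides Ncam2, Epha5, an ephrin receptor, had 7.80, 8.02 and 7.80 in NeuroD2-labelled MEFs, against 4.43, 4.61 and 4.32 in untransduced MEFs, and rose by 3.42 ± 0.207 (adjusted p = 1.07e-10). Sema3e, a secreted semaphorin, had 10.00, 9.94 and 9.89 in NeuroD2-labelled MEFs, against 6.83, 6.72 and 6.07 in untransduced MEFs, and rose by 3.40 ± 0.413 (adjusted p = 3.4e-06). Cntn2, a contactin of axons, rose by 2.66 ± 0.173, and Efnb2, an ephrin ligand, by 1.95 ± 0.194. Epha4 moved the other way, with 6.70, 6.38 and 6.48 in NeuroD2-labelled MEFs, against 8.63, 8.71 and 8.59 in untransduced MEFs (difference -2.13 ± 0.219, adjusted p = 3.29e-07). Nrp2, a semaphorin coreceptor, fell by 1.88 ± 0.185, Fez1, a protein of axon outgrowth, by 1.90 ± 0.137, and Sema3a by 1.68 ± 0.417. Receptors of the same family changed in opposite directions (Epha5 and Epha4), as did secreted semaphorins (Sema3e and Sema3a). With P19 NeuroD2 the list had 23 rises and 2 falls, and with MyoD in MEFs, where 10.8% of all genes rose and 14.5% fell, 12 rises and 20 falls.

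Neural progenitor genes had 1 rise (3.45%, against 6.41% of all genes) and 2 falls (6.9%, against 5.94%) among 29. Irx3 rose by 1.43 ± 0.228, and Sox9, a factor of cartilage as well as of neural stem cells, had 6.77, 6.89 and 6.69 in NeuroD2-labelled MEFs, against 9.40, 9.53 and 9.43 in untransduced MEFs, and fell by 2.67 ± 0.188 (adjusted p = 1.15e-09). Of 19 glial genes, 3 rose (15.8%) and 2 fell (10.5%). Gja1, connexin 43, and Slc1a3, a glutamate transporter, each rose by 1.20, and Mbp, myelin basic protein, fell by 1.75 ± 0.248.

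The insulin-like growth factor system had 5 rises (21.7%, against 6.41% of all genes) and no fall among 23 genes in limma, with a median of 0.34. At an unadjusted p under 0.05 in limma the counts were 6 and 3, against 1896 and 1853 of all 18193 genes. Igf1, the ligand, had 11.54, 11.69 and 11.60 in NeuroD2-labelled MEFs, against 7.75, 8.09 and 8.07 in untransduced MEFs, and rose by 3.64 ± 0.148 (adjusted p = 1.82e-13). Stc2, stanniocalcin 2, which restrains the protease that frees the ligand, rose by 2.66 ± 0.223. Htra3, a serine protease able to cut binding proteins, had 9.26, 8.33 and 8.66 in NeuroD2-labelled MEFs, against 5.73, 5.83 and 5.72 in untransduced MEFs, and rose by 2.99 ± 0.245 (adjusted p = 1.12e-08). Other probe sets of Htra3 differed by -0.03 and 0.51 and did not pass. Igfbp4 rose by 1.11 ± 0.201, beside the 7.92 of Igfbp5. With quantile normalization 5 rose and 2 fell, against 1655 and 1700 of all 18193 genes. Without the P19 array that stood apart 7 rose (30.4%, against 13.8% of all genes) and 2 fell (8.7%, against 13.3%).

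Of 41 imprinted genes, 6 rose (14.6%, against 6.41% of all genes) and 1 fell (2.44%, against 5.94%). Besides Mest, Plagl1, a zinc finger factor, had 13.92, 13.94 and 14.02 in NeuroD2-labelled MEFs, against 12.03, 12.04 and 11.86 in untransduced MEFs, and rose by 1.98 ± 0.146 (adjusted p = 2.36e-09). With the other probe set chosen as above, Plagl1 differed by 0.33 and did not pass (adjusted p = 0.427). Peg3, another zinc finger factor, rose by 1.72 ± 0.345, and Peg10, a gene derived from a retrotransposon, by 1.61 ± 0.298. Copg2, which overlaps Mest in the genome, rose by 0.70, and Dlk1 was the member that fell. Signal from overlapping genes was not told apart here. Without the P19 array that stood apart, 11 rose (26.8%, against 13.8% of all genes) and 3 fell (7.32%, against 13.3%).

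Of 27 myogenic regulators, 3 rose (11.1%, against 6.41% of all genes) and 3 fell (11.1%, against 5.94%), and MyoD in MEFs had 16 rises and 3 falls. Met, the receptor of hepatocyte growth factor, had 5.98, 5.92 and 5.78 in NeuroD2-labelled MEFs, against 8.79, 8.79 and 8.80 in untransduced MEFs, and fell by 2.90 ± 0.243 (adjusted p = 1.62e-08). Eya1, a transcriptional coactivator, fell by 1.19 ± 0.347. Signal for Myf5, which the mice lack, was 8.65, 8.85 and 8.50 in NeuroD2-labelled MEFs, against 9.60, 9.33 and 9.38 in untransduced MEFs, a fall of 0.77 ± 0.198 (adjusted p = 0.0107). Whether its probe set lies in the part removed was not stated in the sources used here. Mymk, a membrane protein of myoblast fusion, rose by 1.01 ± 0.172, and Myog differed by 0.12 without passing the test. Among 51 sarcomere and neuromuscular junction genes, 5 rose (9.8%) and 2 fell (3.92%), whereas MyoD had 42 rises and no fall, with a median of 5.54. Without the P19 array that stood apart 6 rose (11.8%, against 13.8% of all genes) and 5 fell (9.8%, against 13.3%) in NeuroD2-labelled MEFs. Ldb3, a protein of the Z line, rose by 2.77 ± 0.13, while its other probe sets differed by 0.17 and 0.21 and did not pass. Myl4, an embryonic and atrial myosin light chain, rose by 2.24 ± 0.148. Myom1 (mean 4.89 against 5.4 in untransduced MEFs) and Ryr1 (4.17 against 4.69) fell.

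The fibroblast matrix list split evenly, with 10 rises and 10 falls among 45 genes (22.2% each, against 6.41% and 5.94% of all genes). Eln, elastin, had 9.53, 9.77 and 9.59 in NeuroD2-labelled MEFs, against 6.25, 6.34 and 6.16 in untransduced MEFs, and rose by 3.38 ± 0.125 (adjusted p = 3.75e-14). Col14a1, a collagen that binds fibrils, rose by 2.77 ± 0.157. Aspn, asporin, had 10.78, 10.75 and 10.60 in NeuroD2-labelled MEFs, against 13.12, 13.18 and 13.29 in untransduced MEFs, and fell by 2.49 ± 0.129 (adjusted p = 1.09e-11). Lum, lumican, fell by 2.61 ± 0.249. Col1a1 (0.32), Thy1 (-0.56) and Vim (-0.24) did not pass the test with all 24 arrays. In the 6 arrays of batch 2 alone all 3 passed, with adjusted p of 0.0183, 0.00054 and 0.0104, and Thy1 also passed with a replicate block (0.0237). MyoD in MEFs had no rise and 30 falls in this list.

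Matrix proteases and their inhibitors had 4 rises (16%, against 6.41% of all genes) and 10 falls (40%, against 5.94%) among 25 genes, with a median of -0.41. Mmp10, a stromelysin like Mmp3, had 5.23, 5.50 and 5.37 in NeuroD2-labelled MEFs, against 9.03, 8.89 and 8.56 in untransduced MEFs, and fell by 3.46 ± 0.182 (adjusted p = 1.25e-11). Plaur, the urokinase receptor, fell by 1.67 ± 0.162. An inhibitor, Timp3, rose by 1.78 ± 0.419, and so did Adamts9, a protease of proteoglycans, by 1.54 ± 0.247. The median of this list was 0.26 between the untransduced MEFs of batch 2 and batch 1, with 5 members higher and none lower in batch 2 (2.28% of all genes differed between these controls in either direction).

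Other mesenchymal lists held calls in both directions. Smooth muscle and myofibroblast genes, 22 in number, had 4 rises (18.2%, against 6.41% of all genes) and 1 fall, among them Actg2, a smooth muscle actin, with 1.25 ± 0.386, and Ccn2, a matricellular protein, with -1.44 ± 0.232. Of 18 adipocyte genes, 3 rose (16.7%) and 1 fell, led by Cebpa, an adipogenic factor, with 1.20 ± 0.12. Cartilage and bone genes had 1 rise and 5 falls (18.5%, against 5.94% of all genes) among 27, with Matn1, a cartilage matrix protein, at 1.78 ± 0.12 and Omd, osteomodulin, at -1.89 ± 0.12. Without the P19 array that stood apart, 5 cartilage and bone genes rose (18.5%) and 6 fell (22.2%). The falls became 2 among smooth muscle genes (9.09%) and 2 among adipocyte genes (11.1%). In that fit 13.8% of all genes rose and 13.3% fell.

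Chemokine, complement and acute phase genes had 4 rises (10.5%, against 6.41% of all genes) and 14 falls (36.8%, against 5.94%) among 38. The falls included Ccl11, Cxcl5 and Ccl8 given above. The rises included Ackr3 and Serping1, both of which act against their pathways, Ackr3 by clearing a chemokine and Serping1 by inhibiting complement. They also included chemokines, Ccl9 at 1.41 and Ccl5 at 0.74. Between untransduced batches, 6 members of this list were higher and 1 was lower in batch 2. Interferon response genes had 2 rises (5.56%) and 10 falls (27.8%) among 36. Ifit3, an interferon-induced protein, had 9.46, 9.41 and 9.10 in NeuroD2-labelled MEFs, against 10.55, 10.69 and 10.71 in untransduced MEFs, and fell by 1.33 ± 0.193 (adjusted p = 3.61e-05). Isg20, an interferon-induced exonuclease, fell by 1.47 ± 0.137, Rtp4 by 1.23 ± 0.141 and Cxcl10, an interferon-induced chemokine, by 0.99 ± 0.186. MyoD in MEFs had no rise and 29 falls in the interferon list.

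Lists of other cell types held few or no calls. Among 17 blood and macrophage genes, Lyz2 rose by 0.47 ± 0.12 and 2 genes fell (11.8%, against 5.94% of all genes), Cd14 by 0.52 and Cd68 by 0.33. Of 15 endothelial genes, Egfl7 fell by 0.78 ± 0.137 (-0.20, adjusted p = 0.113, as the mean of its probe sets) and none rose, and at an unadjusted p under 0.05 in limma the counts were the same. None of 16 epithelial genes was called by limma in either direction, with 0 at an unadjusted p under 0.05. Pluripotency genes had no rise and 2 falls (9.09%) among 22 in limma. At an unadjusted p under 0.05 in limma the counts were 0 and 3, against 1896 and 1853 of all 18193 genes. Without the P19 array that stood apart 4 fell (18.2%, against 13.3% of all genes in that fit). The larger fall was that of Klf4, a zinc finger factor also active in fibroblasts, at -2.03 ± 0.186.

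The cell cycle genes that passed the test fell. Of 31 S phase genes, none rose and 11 fell in limma (35.5%, against 5.94% of all genes), with a median of -0.37. At an unadjusted p under 0.05 in limma 0 were higher and 15 lower, against 1896 and 1853 of all 18193 genes. Cdt1, which licenses replication origins, had 7.45, 7.32 and 7.21 in NeuroD2-labelled MEFs, against 9.74, 9.55 and 9.47 in untransduced MEFs, and fell by 2.26 ± 0.155 (adjusted p = 7.43e-10). Mcm6, a subunit of the replicative helicase, fell by 1.69 ± 0.128, Mcm5 by 1.23 ± 0.189 and Uhrf1, a factor that maintains DNA methylation, by 0.95 ± 0.242. Of 30 G2 and M phase genes, none rose and 6 fell in limma (20%, against 5.94% of all genes), with 0 and 11 at an unadjusted p under 0.05. The falls numbered 10 (33.3%, against 13.3% of all genes) without the P19 array that stood apart. Prc1, a protein of the spindle midzone, had 6.49, 6.02 and 6.74 in NeuroD2-labelled MEFs, against 7.40, 7.12 and 7.20 in untransduced MEFs, and fell by 0.82 ± 0.215 (adjusted p = 0.0124). Bub1b, a spindle checkpoint kinase, fell by 0.75 ± 0.186, Kif23 by 0.71 ± 0.206 and Top2a by 0.58 ± 0.173. Mki67 differed by -0.19 and did not pass.

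The untransduced MEFs themselves differed in these lists between batches. Batch 2 was below batch 1 for 28 of the 30 G2 and M phase genes (median -1.23) and for 10 of the 31 S phase genes (median -0.55). Against the batch 1 controls, 28 G2 and M phase genes fell in NeuroD2-labelled MEFs with a median of -1.54, and 22 S phase genes with a median of -0.92. Among 30 cyclin-dependent kinase inhibitor and p53 genes, 2 rose (6.67%, against 6.41% of all genes) and 3 fell (10%, against 5.94%), and Cdkn1a (0.13) and Cdkn1c (0.15) did not pass. Ccnd1, cyclin D1, had 7.82, 7.85 and 7.77 in NeuroD2-labelled MEFs, against 9.63, 9.71 and 9.18 in untransduced MEFs, and fell by 1.69 ± 0.228 (adjusted p = 1.41e-05). Gadd45a, a growth arrest gene, fell by 1.67 ± 0.294, and Btg2, an antiproliferative gene, rose by 0.98 ± 0.169. Without the P19 array that stood apart, 6 of this list rose (20%, against 13.8% of all genes) and 7 fell (23.3%, against 13.3%).

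Immediate early genes split, with 8 rises (26.7%, against 6.41% of all genes) and 7 falls (23.3%, against 5.94%) among 30. Nr4a2, an orphan nuclear receptor, had 10.60, 10.57 and 10.62 in NeuroD2-labelled MEFs, against 7.91, 7.40 and 7.12 in untransduced MEFs, and rose by 3.12 ± 0.18 (adjusted p = 5.32e-11). Fos rose by 2.66 ± 0.325 and Egr1 by 1.18 ± 0.192. Of other AP-1 members, Junb rose by 0.74 ± 0.175, whereas Fosl1 fell by 1.88 ± 0.216 and Jun by 1.70 ± 0.244, and Myc fell by 1.32 ± 0.292. Dusp6, a phosphatase that turns off ERK, had 7.18, 7.03 and 7.05 in NeuroD2-labelled MEFs, against 9.97, 9.60 and 9.57 in untransduced MEFs, and fell by 2.63 ± 0.184 (adjusted p = 1.05e-09). FGF and EGF signalling genes had 6 rises (15%) and 10 falls (25%) among 40. Fgf7, a growth factor that fibroblasts make for epithelia, had 8.92, 8.71 and 8.92 in NeuroD2-labelled MEFs, against 12.27, 12.27 and 12.32 in untransduced MEFs, and fell by 3.44 ± 0.181 (adjusted p = 1.26e-11). Spry1, a feedback inhibitor of the pathway, rose by 2.60 ± 0.189, and Pdgfd by 1.86 ± 0.205.

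Wnt pathway genes had 5 rises (10.9%, against 6.41% of all genes) and 13 falls (28.3%, against 5.94%) among 46, with a median of -0.19. Secreted antagonists were among the falls. Sfrp2 had 4.76, 5.04 and 4.97 in NeuroD2-labelled MEFs, against 8.58, 8.37 and 8.38 in untransduced MEFs, and fell by 3.52 ± 0.215 (adjusted p = 1.19e-10). Dkk2 fell by 2.58 ± 0.193 and Sfrp1 by 2.23 ± 0.205, whereas the antagonist Notum rose. A ligand, Wnt5a, had 11.12, 11.04 and 11.12 in NeuroD2-labelled MEFs, against 8.85, 8.87 and 8.59 in untransduced MEFs, and rose by 2.32 ± 0.19 (adjusted p = 1.14e-08). Rspo1, which amplifies Wnt signals, rose by 1.53 ± 0.202. Its relative Rspo3 fell, with a mean of 6.17 in NeuroD2-labelled MEFs against 8.11 in untransduced MEFs. Receptors moved both ways, with Lgr5 at -2.19, Fzd4 at -1.44 and Lgr4 at -1.34, but Fzd6 at 1.39 and Fzd8 at 0.83. Fzd2, Fzd7 and Ror2 fell as well.

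The TGF-beta and BMP list had 7 rises (15.2%, against 6.41% of all genes) and 9 falls (19.6%, against 5.94%) among 46. Tgfb2, a ligand, rose by 1.99 ± 0.603 (adjusted p = 0.0329), and Ltbp1, which holds latent TGF-beta in the matrix, fell by 1.99 ± 0.366. Without the P19 array that stood apart, 13 rose (28.3%, against 13.8% of all genes) and 11 fell (23.9%, against 13.3%). Of 33 Hox genes, 2 rose (6.06%) and 3 fell (9.09%), led by Hoxa2 at -1.17 ± 0.178 and Hoxb9 at 1.06 ± 0.208.

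Among metabolic lists, glycolysis and hypoxia genes had 3 rises (10.3%, against 6.41% of all genes) and 10 falls (34.5%, against 5.94%) of 29. Without the P19 array that stood apart they had 6 (20.7%, against 13.8% of all genes) and 13 (44.8%, against 13.3%). Eno2, an enolase also known as a neuronal marker, had 7.54, 7.41 and 7.51 in NeuroD2-labelled MEFs, against 9.27, 9.13 and 9.22 in untransduced MEFs, and fell by 1.72 ± 0.299 (adjusted p = 0.000274). Hk2, hexokinase 2, fell by 1.36 ± 0.155, Vegfa by 1.33 ± 0.233 and Slc2a1, a glucose transporter, by 1.19 ± 0.17. None of 27 oxidative phosphorylation genes was called by limma, with 0 higher and 1 lower at an unadjusted p under 0.05. Cholesterol and fatty acid genes had 2 rises (7.69%) and 3 falls (11.5%) among 26, and 3 (11.5%) and 14 (53.8%) without the P19 array that stood apart. The median of this list was -0.26. Dhcr7, the last enzyme of cholesterol synthesis, rose by 1.05 ± 0.149, and Hsd17b7 differed by 0.71. Those that fell were Elovl6 (-0.68), Fdft1 (-0.57) and Mvd (mean 8.4 against 9.11 in untransduced MEFs). Of 25 genes of the unfolded protein and amino acid responses, 2 rose (8%) and 4 fell (16%), led by Trib3, a pseudokinase, at -1.52 ± 0.442. Without that array 4 rose (16%) and 7 fell (28%).

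**Figure D4:**
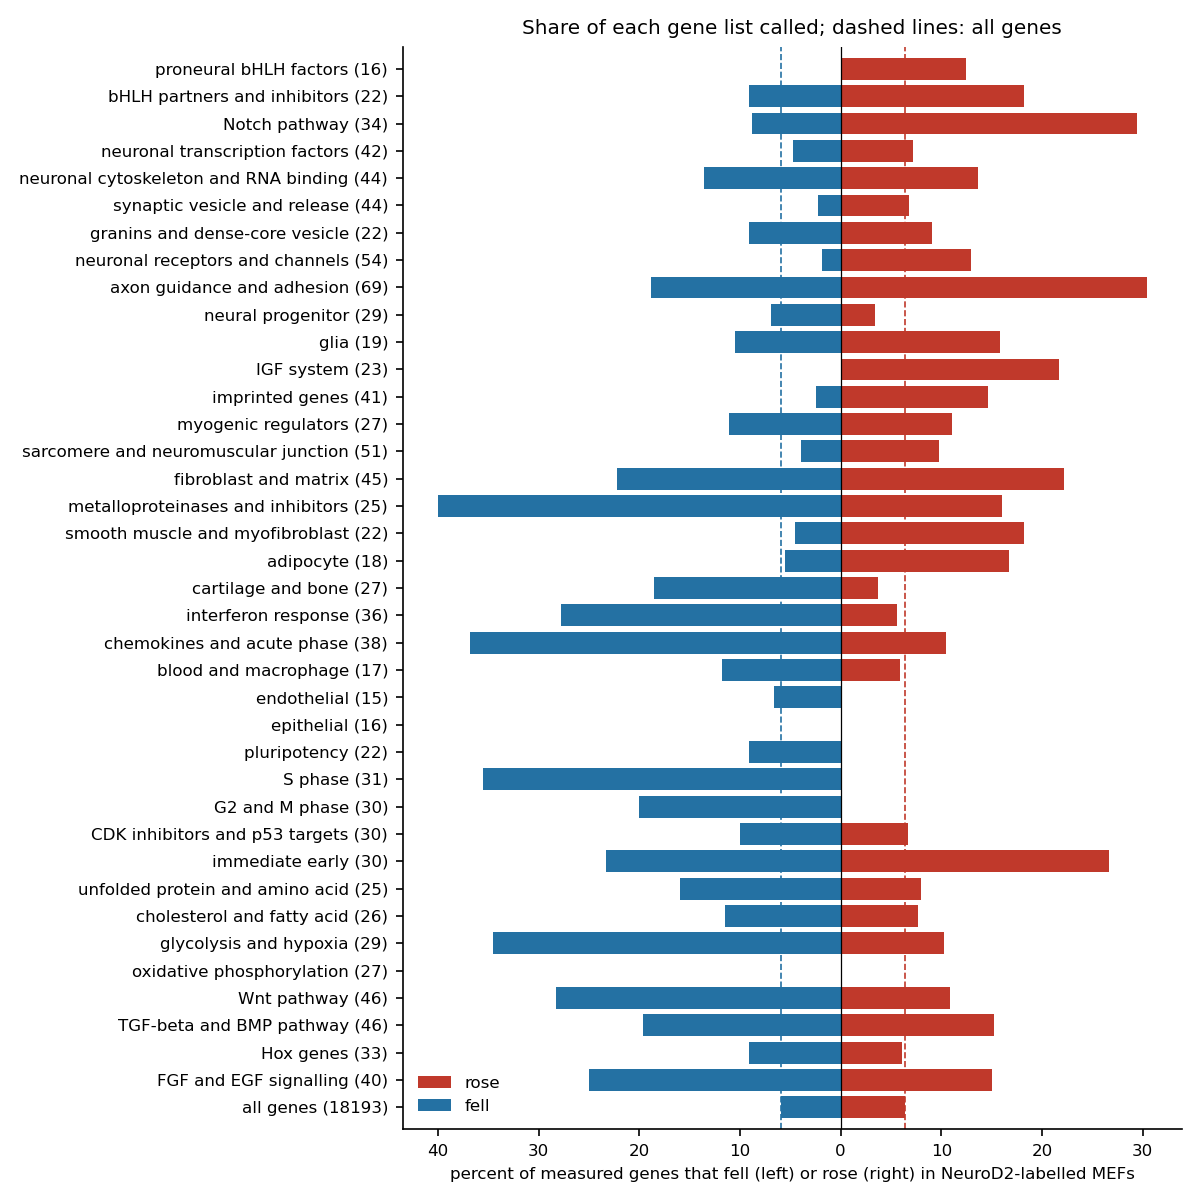
Percent of the measured members of each gene list that fell (blue, left) or rose (red, right) in NeuroD2-labelled MEFs, with the number measured in brackets and dashed lines at the shares of all genes (5.94% fell, 6.41% rose). Metalloproteinases, chemokines, S phase genes and glycolysis genes have the longest bars on the falling side, and axon guidance and Notch pathway genes on the rising side.

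The same labelled factor was also measured in P19 cells. There, 928 genes were higher (5.1%) and 589 lower (3.24%) with NeuroD2 than without. Of the genes that rose in NeuroD2-labelled MEFs, 176 were also higher in P19 cells, which is 15.1% of the MEF rises and 19% of the P19 rises, and 50 were lower there. Of the genes that fell, 99 were also lower in P19 cells (9.17% of the MEF falls and 16.8% of the P19 falls), and 93 were higher there. Over all genes the differences in MEFs and in P19 cells correlated at a Pearson r of 0.14 and a Spearman rho of 0.15, described across genes, which are not independent and share a probe set design. No array is shared between these comparisons, but cell line and batch differ together.

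The difference between the effects was tested in the same fit, as the MEF difference minus the P19 difference, and 1849 genes passed (10.2%), 825 higher and 1024 lower in MEFs. After each array was shifted to a common median the counts were 1544 and 915, so the split depends on the scaling. Mest rose by 6.48 in MEFs against 0.30 in P19 cells, where it was already high, at 12.52 ± 0.215 with NeuroD2 and 12.21 ± 0.262 without (SD, n = 3 each). The difference of its effects was 6.18 (adjusted p = 7.49e-13). Igfbp5 rose by 7.92 against 2.83 (difference 5.09, adjusted p = 6.27e-07), and Dner by 7.29 against 3.73 (difference 3.56, adjusted p = 3.34e-07). Dner and Igfbp5 thus rose in both cell types and by more in MEFs. Jag1 changed by 4.21 in MEFs and 0.68 in P19 cells (difference 3.53, adjusted p = 1.88e-05), Tnr by 4.61 and 0.13 (difference 4.49) and Bmp4 by 4.10 and -0.20 (difference 4.30). Col18a1, a collagen of basement membranes, changed by 3.29 in MEFs and -1.11 in P19 cells (difference 4.39).

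On the lower side of that test, the 5 genes named by size among those whose MEF groups do not overlap were 3 of the largest falls in MEFs and a pair of genes that rose in P19 cells. Mmp3 changed by -8.09 in MEFs and -0.17 in P19 cells (difference -7.92), Ccl11 by -7.37 and 0.09 (difference -7.46), and Ccl8 by -5.93 and -0.14 (difference -5.79). These 3 genes were low in P19 cells with or without NeuroD2. Neurod1, a relative of Neurod2, averaged 4.19 ± 0.106 in NeuroD2-labelled MEFs and 4.36 ± 0.0238 in untransduced MEFs, but 10.63 ± 0.265 in P19 cells with NeuroD2 and 4.63 ± 0.3 in those without (SD, n = 3 each). The difference of its effects was -6.18. Scg2 changed by -1.88 in MEFs and 4.08 in P19 cells (difference -5.96). Dll1 changed by 2.25 in MEFs and 2.26 in P19 cells, Notch1 by 1.58 and 2.19, Id1 by 2.02 and 1.94, Id2 by 2.29 and 2.10, and Id4 by 2.43 and 2.06, each past the test in both cell types.

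**Figure D5:**
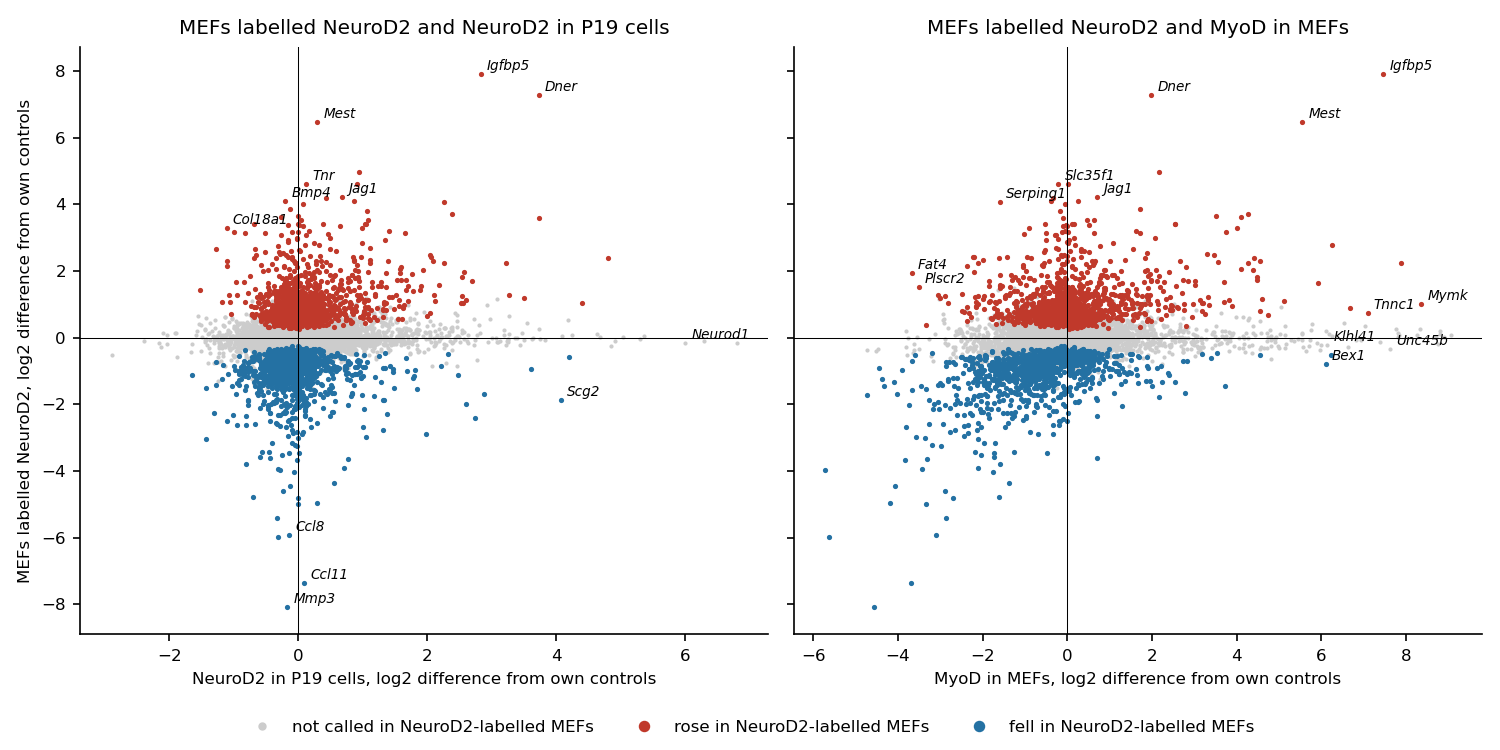
Log2 difference of every gene in NeuroD2-labelled MEFs from untransduced MEFs (vertical axis) against its log2 difference in P19 cells with NeuroD2 (left) or in MEFs with MyoD (right) from their own controls (horizontal axis); red genes rose and blue genes fell in NeuroD2-labelled MEFs. Dner and Igfbp5 lie far out on both axes on the left, where Mest lies near 0 on the horizontal axis, and Igfbp5 and Mest lie far out on both axes on the right.

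MyoD in MEFs, measured in batch 1 against controls of its own, had 1963 genes higher (10.8%) and 2638 lower (14.5%). Of the genes that rose in NeuroD2-labelled MEFs, 305 were higher with MyoD (26.2% of the 1166 and 15.5% of the MyoD rises), and 271 were lower (23.2%). Of the genes that fell, 588 were also lower with MyoD, which is 54.4% of the falls and 22.3% of the MyoD falls, and 126 were higher. Over all genes Pearson's r between the differences was 0.25 and Spearman's rho 0.11. Mmp3 fell by 8.09 in NeuroD2-labelled MEFs and by 4.56 with MyoD, Ccl11 by 7.37 and 3.70, and Cxcl5 by 5.97 and 5.62.

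The NeuroD2-labelled difference minus the MyoD difference passed the test for 3427 genes (18.8%), 1911 higher and 1516 lower in NeuroD2-labelled MEFs. Igfbp5 changed by 7.92 in NeuroD2-labelled MEFs and 7.46 with MyoD, and the difference of 0.45 did not pass (adjusted p = 0.709). Mest changed by 6.48 and 5.54 (difference 0.95, adjusted p = 0.0131). Igf1 changed by 3.64 and 3.51, and Id1 by 2.02 and 1.88. Rises of Igfbp5, Mest, Igf1 and Id1 were thus past the test with either virus. Dner changed by 7.29 and 1.98 (difference 5.31, adjusted p = 3e-10), and Jag1 by 4.21 and 0.71 (difference 3.50, adjusted p = 1.08e-05). Serping1 changed by 4.06 and -1.60 (difference 5.66), Slc35f1 had a difference of 4.81, and Plscr2, a phospholipid scramblase, one of 5.03. Fat4, a giant cadherin, changed by 1.94 and -3.68 (difference 5.62), although against batch 1 controls it changed by 0.99 in NeuroD2-labelled MEFs and did not pass (adjusted p = 0.139).

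Muscle genes were among those lower by this test. Tnnc2, a fast muscle troponin, Actc1, a cardiac actin, Myog and Myh3, an embryonic myosin heavy chain, had differences of effects of -8.98, -8.87, -8.68 and -8.61. Their changes of 0.07, 0.03, 0.12 and 0.19 in NeuroD2-labelled MEFs did not pass. The 5 genes that follow were named by size among those whose MEF groups do not overlap. Unc45b, a myosin chaperone of muscle, averaged 4.14 ± 0.0524 in NeuroD2-labelled MEFs and 11.92 ± 0.0312 in MyoD MEFs (SD, n = 3 each), with a difference of effects of -7.97. Mymk changed by 1.01 and 8.35 (difference -7.34), Tnnc1, a troponin of slow and cardiac muscle, by 0.74 and 7.09 (difference -6.35), and Klhl41, a sarcomere protein, had a difference of -6.36. Bex1, a gene of neurons and of regenerating muscle, had a difference of -6.88. The NeuroD2-labelled and MyoD MEFs were measured in different batches and, by the labels, may have been kept in different medium, which cannot be told apart from the factor.

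Untransduced MEFs of batch 2 differed from those of batch 1 in 415 genes (2.28%), 211 higher and 204 lower in batch 2. Replacing the batch 2 controls by those of batch 1, 1419 genes rose and 1608 fell in NeuroD2-labelled MEFs, and 80.5% of the calls made with batch 2 controls were made again in the same direction. Of those calls, 5 were made in the opposite direction.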

How the data were processed

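RNA was measured on Affymetrix mouse arrays, 1 per sample, in 24 samples of 8 groups. The table deposited by the authors holds log2 signal intensities. Of tools, the submitters' processing notes list limma alone, and how background was corrected and arrays were normalized was not stated there. Quartiles were alike in 23 arrays, as they are after normalization between arrays, and those of P19 control replicate 2 of batch 1 (4.79 and 7.63) were not. The values were used without further scaling.

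Of 45101 probe sets, 34945 carried 1 gene symbol, 9160 none and 932 several in the platform annotation. Where a gene had several probe sets, the brightest on average over the 24 arrays stood for it, which gave 18193 genes. limma 3.58.1 (R 4.3.3) was fitted to all 8 groups without covariates, with 16 residual degrees of freedom, and Benjamini-Hochberg adjustment ran over all genes. Intensities have no read depth, and the number of arrays limits the precision. On simulated data the fit recovered 86% of 100 genes changed by 1 and 98% of 100 changed by 2 on the log2 scale. False calls numbered 9 (4.663% of the calls). The noise was normal, with the same SD in every group for each gene. An array that stands apart was not simulated, so these rates need not hold for the real arrays.

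Named genes were Neurod2, Myod1, the 4 markers, 17 fixed genes, the 15 largest rises and falls, up to 4 called members of each of 38 lists, and the 5 largest each way in both tests of a difference. The 15 largest and the 5 largest had no overlap between groups, and the brighter group averaged over 7.03, the median gene value. A further 33 genes were named after their values were seen. Members and lists were chosen with earlier results of these data known. Promoter windows came from RefSeq (GRCm38.p6). The alternatives were other arrays in the fit, 2 other scalings, dim genes left out, other choices of probe set, a replicate block, the batch 1 controls, a variance trend and each replicate left out.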

Additional observations from a re-analysis of the deposited data

Results flagged for a closer look

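Effects of the NeuroD2 virus that differed between MEFs and P19 cells in the test of the difference itself were set aside for a closer look. The MEF effect was higher for 825 genes and lower for 1024 genes. Among named genes it was higher by 3.56 for Dner, 5.09 for Igfbp5, 6.18 for Mest, 3.53 for Jag1, 4.49 for Tnr, 4.30 for Bmp4 and 4.39 for Col18a1 on the log2 scale. The difference was -7.92 for Mmp3, -7.46 for Ccl11, -5.79 for Ccl8, -6.18 for Neurod1 and -5.96 for Scg2. Mmp3, Ccl11 and Ccl8 had little signal to lose in P19 cells, where they averaged 4.47, 4.36 and 5.14 with NeuroD2 and 4.65, 4.28 and 5.28 without. Neurod2 had an effect 1.76 lower in MEFs at the probe set that rose in P19 cells. At its other probe sets the effects differed by 0 (adjusted p = 0.999 in limma) and -0.21 (adjusted p = 0.738). A part of Neurod2 in the differences above was not tested. Cell type, batch and time of harvest differ together between these comparisons and cannot be told apart. With groups of 3 arrays no search for single outlying arrays was made.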

How the results depend on the processing

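In the fit of all 24 arrays 1166 genes rose and 1080 fell. With the 6 arrays of batch 2 alone the counts were 2760 and 2535, and without P19 control replicate 2 of batch 1 they were 2506 and 2422. Without that array the MEF effect was higher than the P19 effect for 2285 genes and lower for 2235, and the NeuroD2-labelled effect was higher than the MyoD effect for 3537 and lower for 2961. Quantile normalization gave 1700 falls, and 1357 genes with a higher effect in MEFs than in P19 cells, for which a shift of the arrays to a common median gave 1544. Every other alternative left these counts within 1.5 times. Leaving out a NeuroD2-labelled array gave 868 to 915 rises and 820 to 848 falls, and leaving out an untransduced array gave 901 to 957 and 830 to 927. Same-numbered arrays of both groups correlated in their deviations at 0.041, 0.054 and 0.155, so the numbers were not taken to pair the samples, and a replicate block gave 1078 rises and 1022 falls. Of 182 genes named, 145 kept their direction and their side of the threshold in every alternative run for them. Signs turned for Hes1 against the batch 1 controls (0.67, adjusted p = 0.00961) and for Cacna1a without probe sets that can bind several transcripts (-0.51, adjusted p = 0.277). Actg2, Eya1, Tgfb2 and Trib3 lost their call whenever any 1 of the 6 arrays was left out, with an adjusted p of up to 0.121, 0.0853, 0.0937 and 0.0889. Psen2 lost its call (adjusted p up to 0.152) without any array but untransduced replicate 2, and Rfng (0.125) and Cd68 (0.238) without any but untransduced replicate 3. Without NeuroD2-labelled replicate 1 the calls of Cd14 (0.134), Kif23 (0.102) and Tcf12 (0.0624) ended, and without NeuroD2-labelled replicate 2 those of Kif23 (0.151) and Prc1 (0.105). Leaving out NeuroD2-labelled replicate 3 ended those of Cd14 (0.135), Lyz2 (0.0616), Myf5 (0.0614), Top2a (0.176) and Uhrf1 (0.0525). Without untransduced replicate 1, Kif23 (0.0759), Lyz2 (0.0983), Myf5 (0.0601), Prc1 (0.065), Top2a (0.173) and Uhrf1 (0.0759) did not pass. Cd14 (0.173), Top2a (0.0933) and Uhrf1 (0.062) did not pass without untransduced replicate 2, nor Cd14 (0.136), Kif23 (0.205) and Nefm (0.0543) without replicate 3. Kif23 (-0.31, adjusted p = 0.172) and Egfl7 did not pass as the mean of their probe sets. Psen2 did not pass with a replicate block (adjusted p = 0.0734) or a variance trend (0.0765), nor Rfng with quantile normalization (0.182). Tcf12 (-0.55, adjusted p = 0.164) and Top2a (-0.32, adjusted p = 0.548) did not pass without probe sets that can bind several transcripts. With the 6 arrays of batch 2 alone Id3, Unc45b, Col1a1, Thy1 and Vim passed the test, and Cd68 (0.0557) and Kif23 (0.111) did not. Cd14 (0.105) and Cd68 (0.104) did not pass with arrays shifted to a common median. Nor did Cd14 (0.0761), Cd68 (0.0877) and Actg2 (0.0782) with a replicate block. Against the batch 1 controls Cd14, Cd68, Fat4, Notch2, Syt13, Tnnc1 and Tubb2b did not pass, and Cdkn1a, Cdkn1c, Id3 and Mki67 passed the test. Probes near background compress differences, so values near 4 and folds against them are uncertain.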
